A study of Mus musculus with 11 samples.

Results

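The genes described here are 10 paracrine growth factor genes of skin fibroblasts, out of 47643 gene symbols in the deposited table: the FGF ligands Fgf2, Fgf7, Fgf10 and Fgf18, the FGF receptors Fgfr1, Fgfr2 and Fgfr3, the hepatocyte growth factor Hgf, its receptor Met, and Spry2, a feedback inhibitor of receptor tyrosine kinases. They were chosen by gene symbol, and all 10 were found. Fibroblasts had been isolated by fluorescence-activated cell sorting as live cells with CD140a, the product of Pdgfra, and without CD45, CD11b and F4/80, from normal back skin (NS) and from excisional wounds 5 days after injury (5dw). The mice were wild-type (WT) animals or their littermates with a transgene for activin A (K14-Act, here Act), in which the keratin 14 promoter drives INHBA in keratinocytes. All were female, aged 9 to 12 weeks, with a background of 50% CD-1 and 50% C57Bl/6, and each library was made from the pooled RNA of 3 mice. WT NS, Act NS and WT 5dw had 3 libraries each, and Act 5dw had 2, numbered 1 and 3. Because animals were pooled, the spread between libraries is a spread between pools.

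FGF ligands bind FGF receptors together with heparan sulphate, and the receptors signal through the adaptor FRS2 to the RAS and MAP kinase cascade, which switches on its own inhibitors of the Sprouty, Spred and DUSP families. In skin, fibroblasts make Fgf7 and Fgf10, closely related ligands of the epithelial splice form of Fgfr2, so the signal passes from the dermis to the epidermis and hair follicle. Hgf is likewise made by mesenchymal cells as an inactive precursor, and once cleaved it binds Met, which is best known in epithelial cells, where it drives migration and growth. RPKM, a read count divided by gene length and by library size, allows levels of different genes to be compared per length, but does not separate the splice forms of a receptor.

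Values were compared with limma on log2(RPKM + 0.5) over 11979 genes (1 RPKM or more in 2 or more libraries), and DEGs are those with a Benjamini-Hochberg adjusted p under 0.05. Adding 0.5 understates the log2FC of low genes, so ratios of mean RPKM are given as well. All 10 genes passed this filter, but Fgf2 and Fgfr3 reached 1 RPKM in NS libraries alone (6 of 6 each, against 0 of 5 in 5dw) and so could only have entered the test through the tissue in which they were higher. The median log2FC of all tested genes was -0.40 for wounding in WT and -0.31 in Act. Each wounding log2FC of the 10 genes is therefore also given after median-ratio scaling, which centres these medians on 0. Other log2FC values are unscaled unless stated. For Act against WT the median was -0.11 in NS and -0.04 in 5dw.

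Mapped totals were 18649314 to 29718951 reads in NS and 20531288 to 39702135 in 5dw. The INHBA transgene itself was not read here, and whether its reads aligned to the mouse gene Inhba was not tested. The mouse gene Inhba, which codes for the subunit of activin A, was at 62.2 ± 27.6 RPKM (SD, n = 3) in Act NS against 5.69 ± 1.99 (n = 3) in WT NS, without overlap (limma adjusted p = 0.0128), and at 38.2 ± 17.0 (n = 2) in Act 5dw against 20.1 ± 4.11 (n = 3) in WT 5dw, which did not pass (unadjusted p = 0.06, limma adjusted p = 1). The marker of the sort, Pdgfra, was present in every group (29.6 to 65.3 RPKM), and Ptprc, which encodes CD45, was at most 0.0498. Keratinocyte markers were present too: the summed RPKM of 14 such genes, none of them at 0 in any group, was 1264 to 4677 in NS and 130 to 1117 in 5dw. With bulk RNA, fewer cells of a type and less RNA per cell cannot be told apart.

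In WT skin, 6 of the 10 genes were DEGs between 5dw and NS: Hgf rose, and Fgf2, Fgf10, Fgfr2, Fgfr3 and Met fell. The same 6 genes were DEGs in the same direction in Act skin. Fgf2 and Fgfr3 passed the filter through NS alone, so the count of 6 is set in part by the filter. Fgf7, Fgf18, Fgfr1 and Spry2 did not pass the test in either genotype. Of all tested genes, 58.3% were DEGs in WT (9.45% higher and 48.8% lower) and 45.6% in Act (9.04% higher and 36.5% lower), so the count of 6 in 10 is close to the background in WT. After scaling, 44.6% of all genes were DEGs in WT (22.4% higher and 22.2% lower) and 40.7% in Act (19.9% higher and 20.8% lower). The 6 genes kept their calls, and Fgfr1 joined them in WT, which made 7. The median log2FC of the 10 genes was -0.88 in WT and -0.62 in Act, or -0.49 and -0.30 after scaling.

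**Figure D1:**
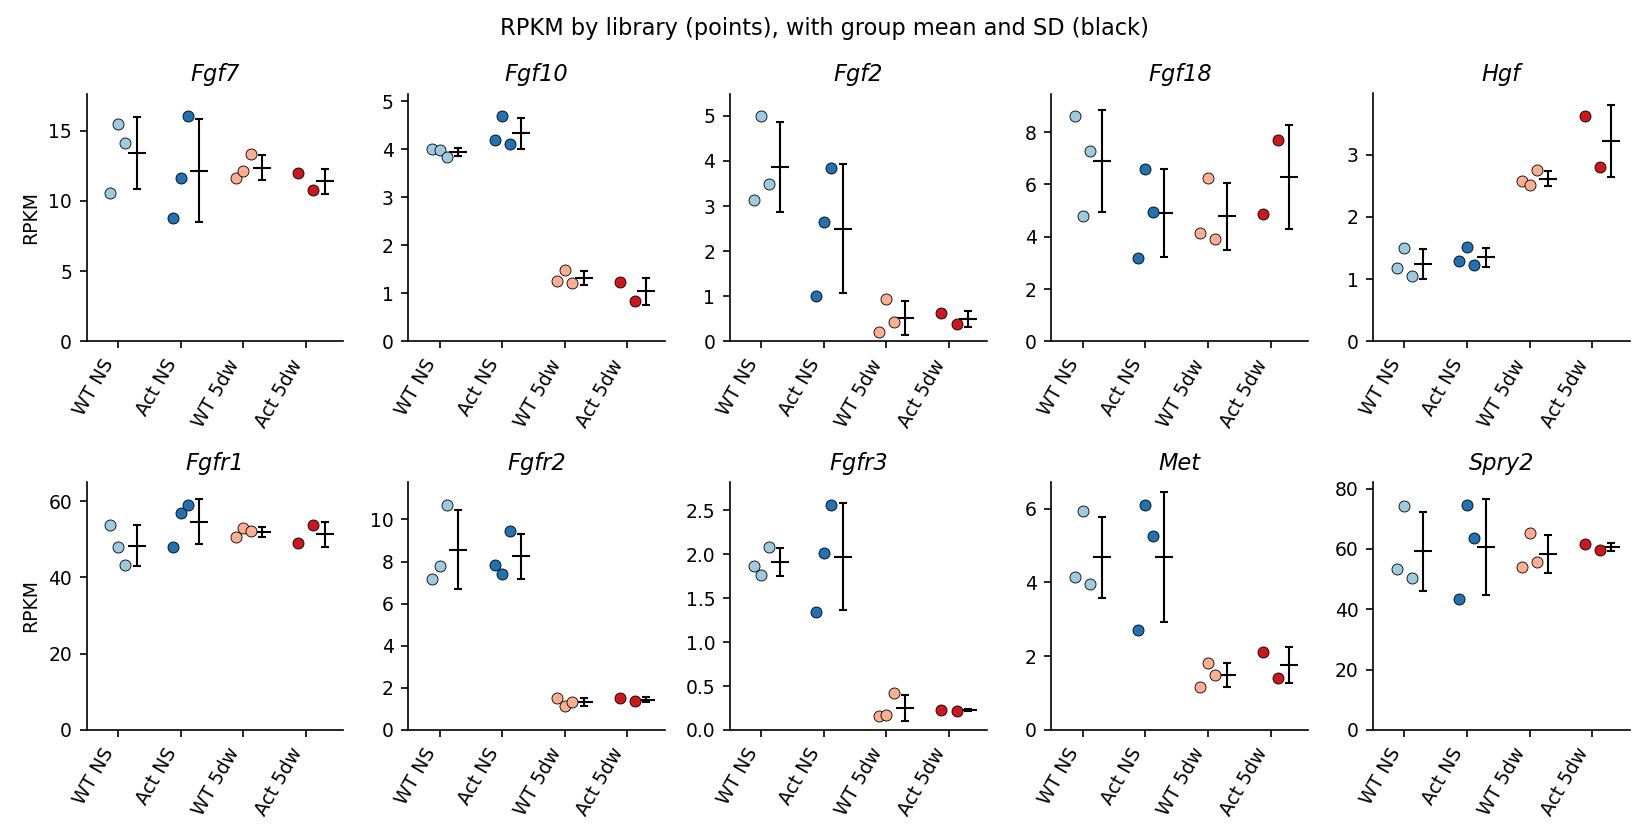
RPKM (y axis, linear from 0) of each of the 10 genes in the 11 libraries, by group (x axis), with 1 point per library and the group mean and SD in black. The 5dw points of Fgf10, Fgf2, Fgfr2, Fgfr3 and Met all lie below every NS point, those of Hgf all lie above, and those of Fgf7, Fgf18, Fgfr1 and Spry2 all lie within the NS range.

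Among the ligands, Fgf7 was the most abundant in all 4 groups. Fgf7 (keratinocyte growth factor; GRCm38 chromosome 2, 126034658 to 126091185, plus strand) was read at 10.6, 15.5 and 14.1 RPKM in WT NS, 8.78, 11.6 and 16.0 in Act NS, and in wounds at 11.6, 12.1 and 13.3 (WT) and 12.0 and 10.8 (Act). The groups overlapped, and the 5 wound libraries lay inside the NS range. Wounding in WT gave a log2FC of -0.10 (95% confidence interval -0.55 to 0.35, limma adjusted p = 0.69), which turned to 0.34 (-0.04 to 0.73) after scaling. For Act 5dw against Act NS it was -0.05 (-0.55 to 0.45, adjusted p = 0.874), and 0.29 after scaling, so a direction could not be given. The gene Fam227b, on the opposite strand of Fgf7, was at 0.115 RPKM at most.

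Fgf10, the close relative of Fgf7 that is needed for limb and skin appendage development (chromosome 13, 118714699 to 118792573, plus strand), fell instead. Its RPKM was 4.01, 3.99 and 3.85 in WT NS, 4.19, 4.69 and 4.11 in Act NS, and in wounds 1.25, 1.48 and 1.22 (WT) and 1.24 and 0.848 (Act). The replicates lay close together, and the highest wound library was well below the lowest NS library. The mean of NS was 2.99 times that of 5dw in WT and 4.15 times in Act. The log2FC was -1.29 (SE 0.12, limma adjusted p = 1.99e-05) in WT and -1.65 (SE 0.14, adjusted p = 1.43e-05) in Act, and -0.92 and -1.39 after scaling. Within a library Fgf7 stood at 2.10 to 3.90 times the level of Fgf10 in NS and at 8.16 to 12.7 times in 5dw.

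The bases just before the annotated starts of these 2 ligands and of Hgf are shown because Fgf7 and Fgf10 moved differently on wounding and Hgf was the ligand that rose. They are the 250 bases upstream of the gene in RefSeq (GRCm38.p6), on the plus strand and 5′ to 3′, for Fgf7 at chr2:126034408-126034657, Fgf10 at chr13:118714449-118714698 and Hgf at chr5:16553245-16553494. Capitals mark matches, on either strand, to the AP-1 motif TGANTCA, the TATA box TATAAA or the CCAAT box CCAAT.
Fgf7: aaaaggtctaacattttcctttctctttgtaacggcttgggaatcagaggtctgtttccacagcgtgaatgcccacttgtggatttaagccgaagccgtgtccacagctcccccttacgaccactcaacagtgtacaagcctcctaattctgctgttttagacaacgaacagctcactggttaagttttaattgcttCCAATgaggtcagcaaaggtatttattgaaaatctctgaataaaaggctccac
Fgf10: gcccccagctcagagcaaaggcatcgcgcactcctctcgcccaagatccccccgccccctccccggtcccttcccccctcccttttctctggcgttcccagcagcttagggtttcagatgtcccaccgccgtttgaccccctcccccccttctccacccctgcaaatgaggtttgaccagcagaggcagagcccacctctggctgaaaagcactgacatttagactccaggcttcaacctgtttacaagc
Hgf: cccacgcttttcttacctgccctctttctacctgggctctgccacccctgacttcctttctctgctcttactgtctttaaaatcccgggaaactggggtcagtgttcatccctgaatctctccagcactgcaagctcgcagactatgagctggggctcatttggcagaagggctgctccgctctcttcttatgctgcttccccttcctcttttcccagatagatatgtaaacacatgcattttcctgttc
Fgf7 held 1 CCAAT box, which began 53 bases before the start. Neither Fgf10 nor Hgf had a match to the 3 motifs in this window. Of 32851 RefSeq promoters cut to the same 250 bases, 33.8% held a CCAAT box, 6.75% an AP-1 match and 12.4% a TATA box. RefSeq promoters were found for 9 of the 10 genes. In 7 of them the window lay before the gene's own start (those of Fgf2 and Met ended at a transcript start within the gene and were left out), and of these 7 the CCAAT box occurred in 2 (Fgf7 and Fgfr3), with no match to the AP-1 motif or the TATA box. A match is a stretch of letters, and binding was not measured.

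Fgf2, a ligand without a classical signal peptide that acts on fibroblasts and endothelium (chromosome 3, 37348477 to 37410106, plus strand), had the lowest mean level of the 4 FGF ligands in every group. The values in WT NS were 3.12, 4.99 and 3.48 RPKM, in Act NS 1.02, 2.65 and 3.84, with 0.199, 0.935 and 0.442 in wounds of WT and 0.631 and 0.378 in those of Act. No wound library reached the NS range, although the lowest NS library, Act NS replicate 1, was only just above the highest wound library. The mean of NS was 7.37 times that of 5dw in WT (12.1 times without WT 5dw replicate 2) and 4.96 times in Act, with 53 to 243 reads behind each wound value and 163 to 695 behind each NS value. The log2FC was -2.13 (SE 0.37, limma adjusted p = 0.000722) in WT and -1.46 (SE 0.41, adjusted p = 0.0138) in Act, and -1.81 and -1.24 after scaling. The call in Act rested on Act 5dw replicate 3, without which the log2FC was -1.28 and the limma adjusted p was 0.101, the highest of a range from 0.00127 over the alternatives. Fgf2 overlaps Nudt6 on the opposite strand, which was at 1.32 to 2.62 RPKM in NS and 0.784 to 1.37 in 5dw. The library kit keeps the strand, but no source used here says whether the counting did, so reads of Fgf2 and Nudt6 may not have been told apart.

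For Fgf18, a ligand best known in the skeleton and the hair cycle (chromosome 11, 33116970 to 33147400, minus strand), the tissues could not be separated. It was at 8.62, 4.79 and 7.29 RPKM in WT NS, 3.20, 6.57 and 4.95 in Act NS, and in wounds at 4.16, 6.26 and 3.93 (WT) and 4.88 and 7.69 (Act), on 91 to 288 reads a library. All 4 groups overlapped. The estimates for wounding had opposite signs, -0.48 (95% confidence interval -1.10 to 0.15, limma adjusted p = 0.168) in WT and 0.35 (-0.35 to 1.04, adjusted p = 0.39) in Act, or -0.06 (-0.64 to 0.53) and 0.68 (0.03 to 1.33) after scaling, neither of them a DEG. The difference between them, 0.82 (-0.11 to 1.75), had an unadjusted p of 0.079 and an adjusted p of 0.999 in the limma interaction test. Leaving out 1 library at a time moved the estimate from -0.70 (without WT NS replicate 2) to -0.31 (without WT NS replicate 1) in WT and from 0.04 (without Act 5dw replicate 3) to 0.65 (without Act 5dw replicate 1) in Act.

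Hgf, the scatter factor of mesenchymal cells (chromosome 5, 16553495 to 16619439, plus strand), was the 1 gene of the 10 that rose in both genotypes. It was read at 1.18, 1.51 and 1.05 RPKM in WT NS and at 1.29, 1.52 and 1.24 in Act NS, the lowest mean level of the 10 genes in each. In wounds it was at 2.57, 2.52 and 2.75 in WT and at 3.62 and 2.80 in Act. Every wound library was above every NS library, on 516 to 767 reads against 202 to 264. The mean of 5dw was 2.10 times that of NS in WT and 2.38 times in Act. The log2FC was 0.84 (SE 0.14, limma adjusted p = 0.000533) and 1.00 (SE 0.15, adjusted p = 0.000573), and scaling raised it to 1.19 and 1.29. Of all tested genes, 8.45% had all 5 wound libraries above all 6 NS libraries and 38.9% had them all below.

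**Figure D2:**
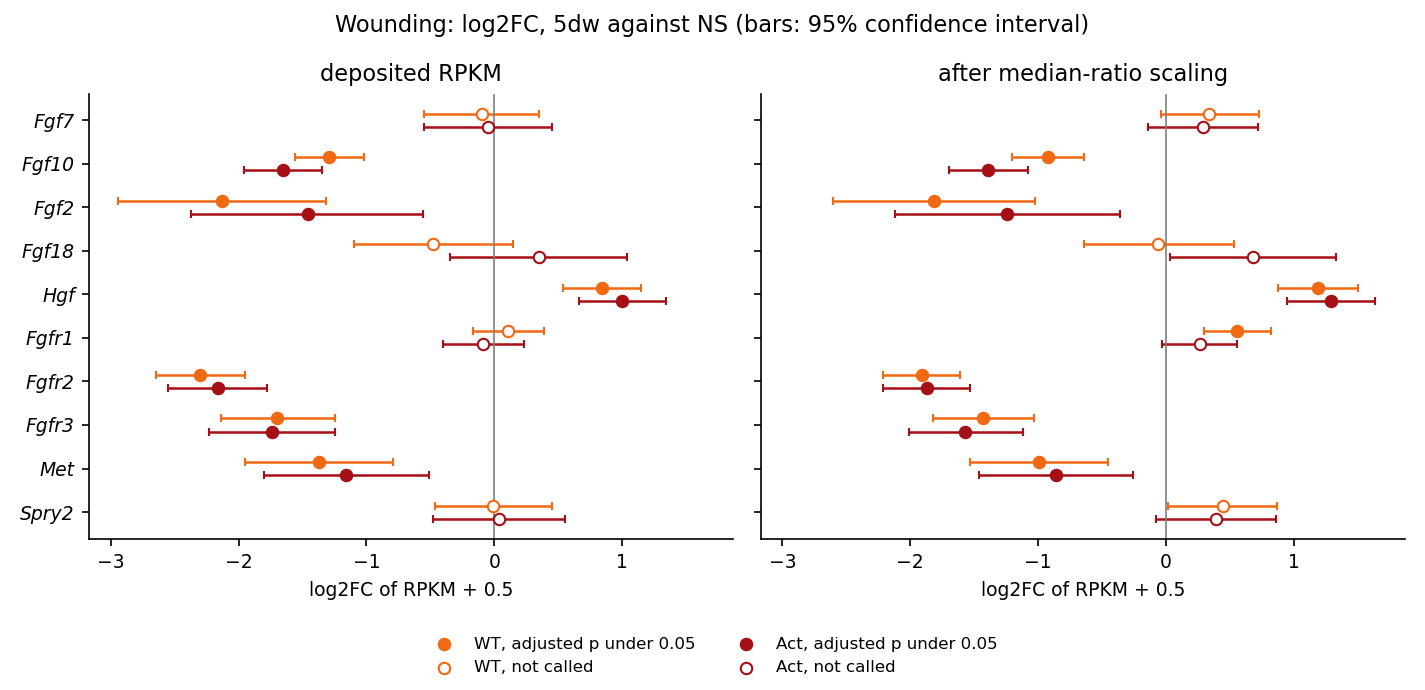
log2FC of RPKM + 0.5 (x axis) between 5dw and NS for each gene (y axis), in WT (orange) and Act (dark red), with 95% confidence intervals from limma and filled points for an adjusted p under 0.05. The left panel shows deposited RPKM and the right panel values after median-ratio scaling, where every estimate lies farther to the right and Fgfr1 is filled in WT, at 0.56.

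The receptors parted from each other. Fgfr1, the main FGF receptor of mesenchymal cells (chromosome 8, 25518759 to 25575718, plus strand), was at 53.7, 48.0 and 43.2 RPKM in WT NS, 48.1, 56.7 and 59.1 in Act NS, and in wounds at 50.6, 53.0 and 52.1 (WT) and 48.9 and 53.6 (Act). It was the most abundant receptor of the 4 in every library, and the wound values lay within the NS range. Its log2FC for wounding was 0.11 (95% confidence interval -0.17 to 0.39, limma adjusted p = 0.483) in WT and -0.09 (-0.40 to 0.23, adjusted p = 0.639) in Act. After scaling it was 0.56 (0.30 to 0.82, adjusted p = 0.00339) in WT, past the threshold, and 0.27 (-0.03 to 0.56) in Act. Over the alternatives the adjusted p in WT ran from 0.00339 to 0.869.

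Fgfr2, whose epithelial splice form receives Fgf7 and Fgf10 (chromosome 7, 130162451 to 130266808, minus strand), fell. It was at 7.19, 7.79 and 10.7 RPKM in WT NS, 7.86, 7.43 and 9.44 in Act NS, and in wounds at 1.51, 1.14 and 1.32 (WT) and 1.53 and 1.36 (Act). A wide gap separated the tissues, and the genotypes overlapped within each. The mean of NS was 6.48 times that of 5dw in WT and 5.70 times in Act, and the log2FC was -2.30 (SE 0.16, limma adjusted p = 2.31e-06) and -2.16 (SE 0.18, adjusted p = 1.2e-05), or -1.91 and -1.87 after scaling. Fgfr1 stood at 4.03 to 7.64 times the level of Fgfr2 in NS libraries and at 32.0 to 46.4 times in 5dw libraries.

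Fgfr3, a receptor of keratinocytes and cartilage (chromosome 5, 33721724 to 33737068, plus strand), was at 1.87, 1.77 and 2.08 RPKM in WT NS, 1.34, 2.01 and 2.57 in Act NS, and in wounds at 0.158, 0.173 and 0.421 (WT) and 0.231 and 0.218 (Act). The wound values were all below the NS values and rested on 34 to 117 reads, against 230 to 443 in NS. WT 5dw replicate 3 was the highest of the 5. NS means were 7.60 times the 5dw means in WT (11.5 times without WT 5dw replicate 3) and 8.78 times in Act, with a log2FC of -1.70 (SE 0.20, limma adjusted p = 7.49e-05) and -1.74 (SE 0.22, adjusted p = 0.00019), or -1.43 and -1.57 after scaling.

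Met, the receptor of Hgf (chromosome 6, 17463349 to 17573980, plus strand), went the opposite way to its ligand. It was at 4.14, 5.94 and 3.95 RPKM in WT NS, 2.72, 6.11 and 5.26 in Act NS, and in wounds at 1.17, 1.82 and 1.49 (WT) and 2.10 and 1.41 (Act). Again no wound library reached an NS library, with Act NS replicate 1 the lowest of the NS values. NS means were 3.13 times the 5dw means in WT and 2.67 times in Act. The log2FC was -1.37 (SE 0.26, limma adjusted p = 0.00132) and -1.16 (SE 0.29, adjusted p = 0.0084), or -0.99 and -0.86 after scaling, and without Act 5dw replicate 3 the value in Act was -0.93 with an adjusted p of 0.0867, against 0.000733 at the lowest alternative. The level of Hgf was 0.235 to 0.474 times that of Met in NS libraries and 1.39 to 2.20 times in 5dw libraries.

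Spry2, an inhibitor that many receptor tyrosine kinases induce (chromosome 14, 105891947 to 105896819, minus strand), had the highest mean RPKM of the 10 genes in every group. It was at 53.3, 74.3 and 50.2 in WT NS, 43.4, 74.7 and 63.5 in Act NS, and in wounds at 54.0, 65.4 and 55.6 (WT) and 61.5 and 59.6 (Act). The wound libraries lay inside the NS range. The log2FC was -0.01 (95% confidence interval -0.46 to 0.45, limma adjusted p = 0.981) in WT and 0.04 (-0.48 to 0.55, adjusted p = 0.917) in Act, and 0.45 (0.02 to 0.87) and 0.39 (-0.08 to 0.86) after scaling, neither of them a DEG.

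By level, Spry2 and Fgfr1 led in all 4 groups and Fgf7 followed. In WT NS they were followed by Fgfr2, Fgf18, Met, Fgf10, Fgf2, Fgfr3 and Hgf, of which the neighbours from Fgf7 to Fgf2 overlapped in range and Fgf2, Fgfr3 and Hgf stood apart from each other. In Act NS the order of the means was the same, with Fgfr2 apart from Fgf18 and Fgf10 apart from Fgf2, but Fgf2, Fgfr3 and Hgf overlapped each other in turn. In WT 5dw, by contrast, Fgf18 and Hgf came after Fgf7 and did not overlap their neighbours, Met, Fgfr2 and Fgf10 overlapped each other in turn, and Fgf2 and Fgfr3 were the lowest and overlapped. Act 5dw had the same order, and Met and Fgfr2 were the only neighbours that overlapped.

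Fgfr2, Fgfr3 and Met, which fell, are known in keratinocytes, and keratinocyte markers moved with the tissue. Of the 14 markers, 12 fell in WT and 12 in Act, with a median log2FC of -2.84 and -3.23, and none rose (10 fell in each after scaling), beside 48.8% and 36.5% of all tested genes lower (22.2% and 20.8% after scaling). Krt15 passed the filter through NS alone. The sum was 1267 to 2289 in WT NS, 1264 to 4677 in Act NS, 130 to 1117 in WT 5dw and 281 to 336 in Act 5dw. WT 5dw replicate 3 had the highest sum of the wound libraries, with Krt14 at 528 RPKM and Krt5 at 253, the highest wound values of each. Without WT 5dw replicate 3, the same number of genes, 6, were DEGs in WT. Among the markers Krt14 itself did not pass the test (log2FC -0.63, limma adjusted p = 0.408, in WT), while Krt10 was at 584 ± 256 RPKM (SD) in the 3 libraries of WT NS and 17.8 ± 12.3 in WT 5dw. The part of keratinocyte RNA in the values of Fgfr2, Fgfr3 and Met was not tested.

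**Figure D3:**
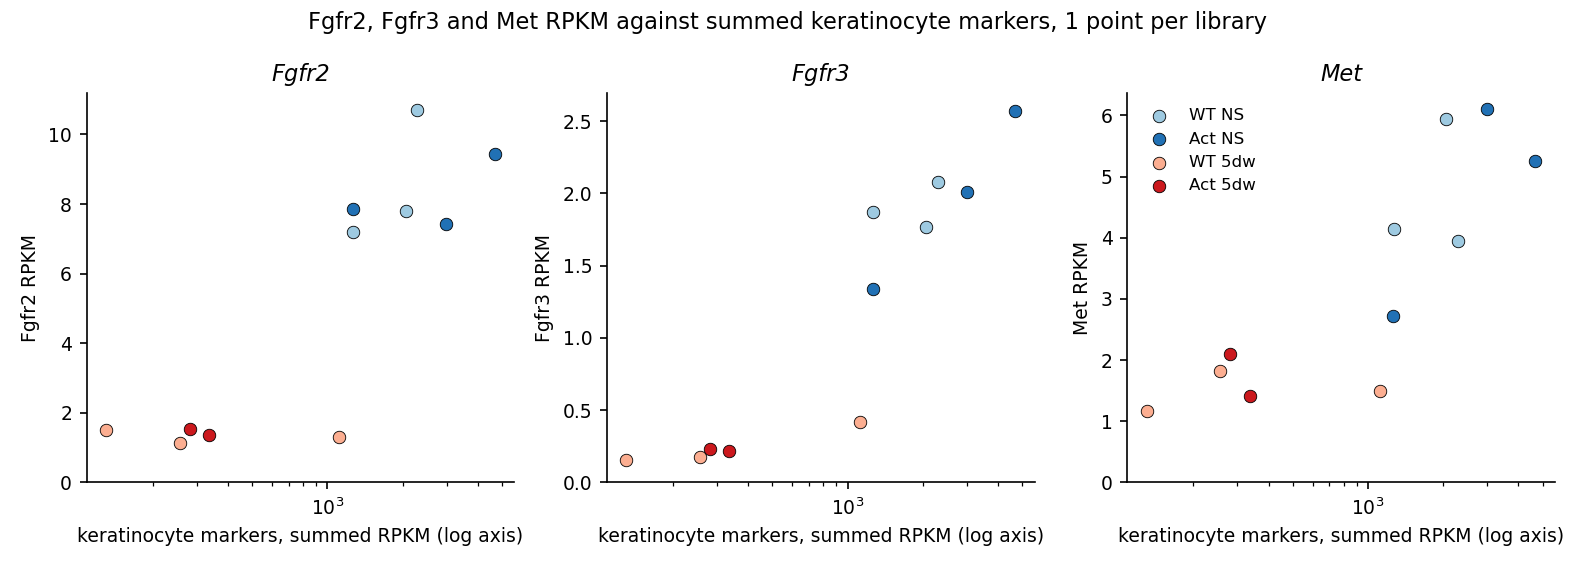
RPKM of Fgfr2, Fgfr3 and Met (y axes, linear from 0) against the summed RPKM of 14 keratinocyte markers (x axis, log scale), with 1 point per library coloured by group. The 5 wound libraries lie at marker sums of 130 to 1117 and the 6 NS libraries at 1264 to 4677, and all 5 lie below all 6 for each of the 3 genes.

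Markers of the dermal papilla, the follicle mesenchyme that makes Fgf7 and Fgf10, also moved. Their summed RPKM over 6 genes was 9.41 to 34.9 in WT NS, 12.7 to 34.1 in Act NS, 0.298 to 0.432 for WT wounds and 2.66 to 5.03 for Act wounds, with Sox2 at 0 in all wound libraries. Of 4 tested genes, 1 of which (Lef1) passed the filter through NS alone, 4 fell in WT and 3 in Act (4 and 2 after scaling), beside 48.8% and 36.5% of all genes lower (22.2% and 20.8% after scaling). Schwann cell markers summed to 2.88 to 6.43 in NS and 0.456 to 0.628 in 5dw (2 of 2 tested genes lower in each genotype, both of which passed the filter through NS alone, and 1 in WT and 2 in Act after scaling). For the counts that follow, 9.45% of all tested genes rose in WT and 9.04% in Act (22.4% and 19.9% after scaling). Leukocyte markers summed to 15.2 to 46.7 in NS and 67.0 to 120 in 5dw (of 5 tested, 2 rose in WT, and 1 rose and 1 fell in Act, but after scaling 3 rose in WT and 2 in Act, and none fell). Most of the higher sum in wounds was 1 gene, Cd3e, at 9.53 ± 7.34 RPKM in WT NS and 86.0 ± 16.4 in WT 5dw (n = 3 each), whereas Ptprc and Adgre1, which encodes F4/80, were at 0.119 at most. Endothelial markers summed to 6.12 to 11.1 in NS and 16.2 to 18.1 in 5dw (of 3 tested, 1 rose in WT and 2 in Act, of which Cdh5 passed the filter through wounds alone, and 2 in each after scaling), again mostly by 1 gene, Pecam1, at 4.35 ± 0.860 and 12.2 ± 0.946 in WT. Kdr was lower on average in WT 5dw (2.65 ± 0.478 against 4.42 ± 1.54) but did not pass the test. Over all libraries pericyte markers summed to 11.7 to 23.5 (of 6, 1 rose and 3 fell in WT, and 2 and 2 in Act, but 2 rose and 1 fell in each after scaling). Adipocyte markers summed to 45.5 to 127 (1 of 3 fell in each genotype) and markers of skeletal muscle and satellite cells to 1.53 to 5.61 (1 of 1 fell in each), and none of these calls held after scaling. The 8 fibroblast markers summed to 10617 to 16387 in NS and 22095 to 25447 in 5dw (3 rose and 4 fell in WT, 3 and 3 in Act, or 3 and 1, and 3 and 3, after scaling). Their median log2FC in WT turned from -0.32 to 0.14 with scaling. The part of these cells in the values of the 10 genes, Fgf10 among them, was not tested.

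Between genotypes, 0 of the 10 genes were DEGs in NS and 0 in 5dw by limma, with 0 at an unadjusted p under 0.05 in either. Of all tested genes, 0.0167% passed in NS against 0.0334% in 5dw, while 6.88% and 3.22% had an unadjusted p under 0.05. The limma-voom fit of reads recovered from the RPKM values also called 0 in both. After scaling, Fgfr1 in NS had an interval above 0 (0.32, 0.05 to 0.58, unadjusted p = 0.0224), with a limma adjusted p of 0.991. In NS the estimates largest in size were those of Fgf2, -0.65 (95% confidence interval -1.45 to 0.16, unadjusted p = 0.106), and Fgf18, -0.46 (-1.09 to 0.16, unadjusted p = 0.128). The narrowest interval was that of Fgf10, 0.12 (-0.16 to 0.39), although its 3 Act NS values (4.11 to 4.69) were all above the 3 WT NS values (3.85 to 4.01), as was so, in one direction or the other, for 8.97% of all tested genes. In 5dw the intervals were -0.33 to 0.29 for Fgfr1, -0.29 to 0.48 for Fgfr2, -0.55 to 0.06 for Fgf10 and -0.09 to 0.58 for Hgf. The 2 Act 5dw values of Hgf (3.62 and 2.80) were above the 3 of WT 5dw (2.52 to 2.75), and 23% of all tested genes had groups without overlap there. With 2 libraries in Act 5dw, a difference inside these intervals could not be resolved.

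**Figure D4:**
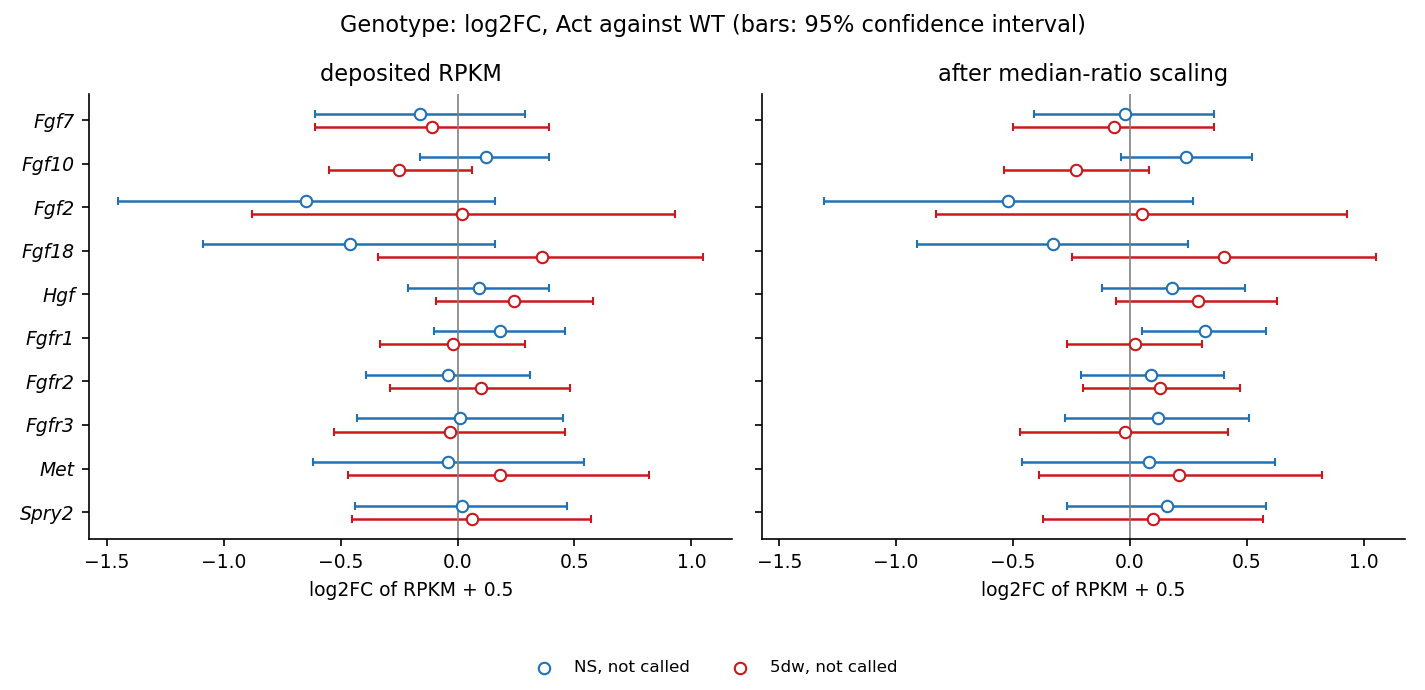
log2FC of RPKM + 0.5 (x axis) between Act and WT for each gene (y axis), in NS (blue) and 5dw (red), with 95% confidence intervals from limma. All points are open because no adjusted p was under 0.05, and the intervals of Fgf2, Fgf18 and Met are the widest.

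Act NS replicate 1 bore on the NS spread. It was the lowest of the 6 NS libraries for 6 of the 10 genes. Its values were low as a whole, with a median-ratio scaling factor of 0.972 against 1.14 to 1.27 in the other NS libraries. The share of all tested genes that were lowest in it was not counted. Without Act NS replicate 1 the estimate for Fgf2 became -0.22 and that for Met 0.27. The interaction of wounding and genotype, which asks whether the response to wounding differed between Act and WT, called 0 of the 10 genes, with 0 at an unadjusted p under 0.05, and 0 by limma-voom. Of all tested genes it called 0%, with 3.34% at an unadjusted p under 0.05. Its lowest unadjusted p-values were 0.0766 for Fgf10 (-0.36, 95% confidence interval -0.77 to 0.05) and 0.079 for Fgf18. Without Act 5dw replicate 1 the estimates were -0.55 for Fgf10 and 1.12 for Fgf18, and without Act 5dw replicate 3 they were -0.18 and 0.52. After scaling the value of Fgf10 was -0.47 (-0.88 to -0.05, unadjusted p = 0.0308), with a limma adjusted p of 0.999. For Hgf the interval was -0.30 to 0.61, for Fgfr2 -0.38 to 0.66 and for Fgf2 -0.54 to 1.88.

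Other genes of the pathways were read from lists chosen by gene name. The counts below stand beside 48.8% of all tested genes lower and 9.45% higher in WT, and 36.5% and 9.04% in Act. After scaling these shares were 22.2% and 22.4% in WT, and 20.8% and 19.9% in Act. Of 18 further genes of the FGF family, not all of them secreted ligands, 5 passed the filter. Of these, 3 (Fgf13, Fgf14 and Fgf16) did so through NS alone, since no wound library reached 1 RPKM. On wounding 0 of the 5 rose and 4 fell in WT, so the count is set in part by the filter. The lowest were Fgf13 (log2FC -1.40, limma adjusted p = 7.67e-05), Fgf16 (-1.11, adjusted p = 0.000823) and Fgf14 (-0.59, adjusted p = 0.0151). After scaling 2 fell, and Fgf14 was no longer a DEG (-0.34, limma adjusted p = 0.172). The unscaled median log2FC of the 5 in WT was -0.59, beside -0.40 for all tested genes. Fgf13 and Fgf14 are intracellular FGF homologues that modulate sodium channels and are not secreted. In Act, 2 of the 5 fell.

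Of 9 further FGF receptors, co-receptors and carriers, 6 were tested, and 4 fell in WT and 3 in Act. Their median log2FC was -0.65 and -0.64. Fgfr4 and Fgfbp3 passed the filter through NS alone. After scaling 2 fell in each, and 1 passed the test as higher in WT, Fgfrl1 (0.53, limma adjusted p = 0.0208), a receptor without a kinase domain. Fgfbp1 codes for a carrier that frees FGFs from the matrix and is known in keratinocytes. It went from 15.2 ± 7.45 RPKM in WT NS to 1.12 ± 1.12 in WT 5dw (n = 3 each, log2FC -3.34, limma adjusted p = 0.00105). The WT 5dw libraries spread from 0.39 to 2.42 RPKM, below the WT NS range of 6.6 to 20.1. Fgfr4 went from 8.52 ± 4.07 to 0.394 ± 0.107 (-3.23, adjusted p = 9.48e-05), so it was near the level of Fgfr2 in NS and lower than Fgfr2 in wounds. Flrt2, which codes for a membrane protein that binds FGF receptors, had a log2FC of -0.72 (adjusted p = 0.0109), and -0.27 (adjusted p = 0.267) after scaling.

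Among feedback and target genes other than Spry2, 11 were tested, of which 7 fell and 1 rose in WT, and 7 and 1 in Act, and lower calls outnumbered higher ones among all tested genes too. Their median log2FC was -0.98 and -1.01, beside -0.40 and -0.31 for all genes, and after scaling 7 and 6 fell, beside 22.2% and 20.8% of all genes. Etv1 passed the filter through NS alone. Spry4 (log2FC -1.87, limma adjusted p = 3.34e-06), Spry1 (-1.76, adjusted p = 3.04e-05) and Dusp6, a phosphatase that turns off ERK (-1.57, adjusted p = 0.00138), led the fall in WT. Spry1 went from 17.7 ± 3.87 RPKM in WT NS to 4.86 ± 1.19 in WT 5dw (n = 3 each) and Spry4 from 4.62 ± 0.673 to 0.893 ± 0.132, while Spry2 stayed within its NS range. The 1 gene that rose, Dusp4, a nuclear phosphatase of the MAP kinases, went from 2.43 ± 0.486 to 11.1 ± 3.30 (log2FC 1.96, adjusted p = 0.000113).

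**Figure D5:**
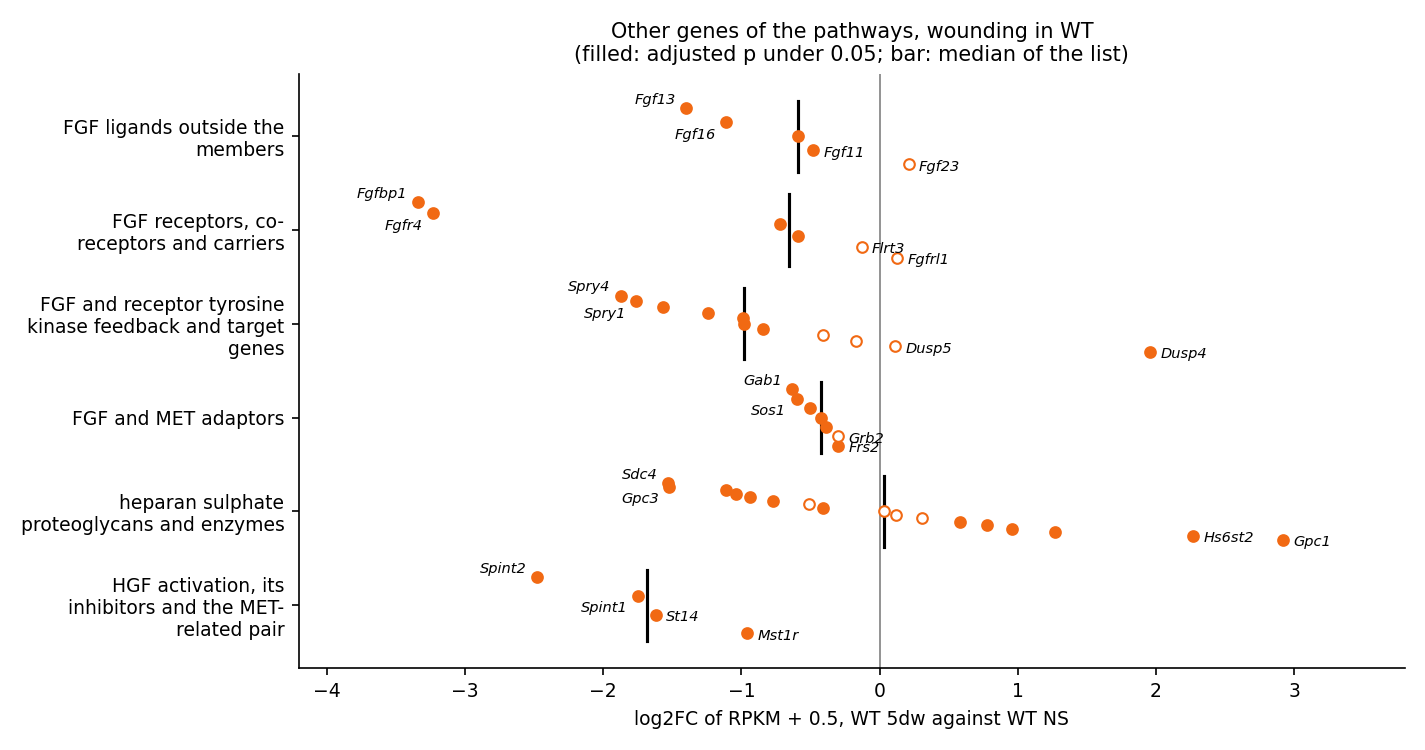
log2FC of RPKM + 0.5 between WT 5dw and WT NS (x axis) for the tested genes of 6 lists (y axis), with 1 point per gene, filled for an adjusted p under 0.05, and a black bar at the median of the list. The heparan sulphate genes spread to both sides around a median of 0.03, from Sdc4 at -1.53 to Gpc1 at 2.92, while 5 lists have medians below 0.

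Heparan sulphate proteoglycans and the enzymes that sulphate or trim them, which present FGFs and HGF to their receptors, spread to both sides. Of 17 tested, 6 rose and 7 fell in WT, and 6 and 7 in Act, with a median log2FC of 0.03 and 0.05. Of all tested genes, 9.45% were higher and 48.8% lower in WT, and 9.04% and 36.5% in Act. After scaling 9 of the 17 rose and 6 fell in WT, and 9 and 4 in Act. The shares of all genes were then 22.4% higher and 22.2% lower in WT, and 19.9% and 20.8% in Act. The membrane glypican Gpc1 went from 3.95 ± 0.508 RPKM in WT NS to 33.3 ± 5.49 in WT 5dw (n = 3 each; log2FC 2.92, limma adjusted p = 4.99e-06). Hs6st2, a 6-O-sulphotransferase, went from 0.346 ± 0.156 to 3.56 ± 0.548 (2.27, adjusted p = 5.74e-06), and passed the filter through wounds alone. Sulf1, an enzyme that takes 6-O-sulphate away, went from 11.1 ± 2.49 to 27.0 ± 3.42 (1.27, adjusted p = 0.000955). The glypicans Gpc3 (-1.52, adjusted p = 0.000255) and Gpc4 (-1.11, adjusted p = 0.000241) and the syndecan Sdc4 (-1.53, adjusted p = 0.000284) fell.

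Around Hgf and Met, 4 of 7 listed genes were tested, and all 4 fell in WT and in Act, also after scaling. Of all tested genes, 48.8% fell in WT and 36.5% in Act (22.2% and 20.8% after scaling). St14 passed the filter through NS alone. The median log2FC was -1.68 and -1.88. Spint2 (log2FC -2.48, limma adjusted p = 0.00124) and Spint1 (-1.75, adjusted p = 0.0109) code for inhibitors of the proteases that activate Hgf, St14 (-1.62, adjusted p = 0.0039) codes for such a protease, matriptase, and Mst1r (-0.96, adjusted p = 0.00249) for the receptor related to Met. These genes are known in epithelia, and the keratinocyte marker sums given above were also lower in wounds than in NS. The part of keratinocyte RNA in the values of these genes was not tested. Hgfac, the activator of Hgf, did not pass the filter (0.218 ± 0.0431 RPKM in WT NS). Of 7 tested adaptors of both receptor families, 6 fell in WT and 4 in Act, beside the same background, led by the docking protein Gab1 (-0.63, adjusted p = 0.00105), the RAS exchange factor Sos1 (-0.60, adjusted p = 0.00266) and the phosphatase Ptpn11 (-0.50, adjusted p = 0.00982), but after scaling 0 were DEGs in WT and 1, Gab1, in Act. No gene of the 6 lists was a DEG between genotypes or in the interaction by limma.

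The genes whose profile over the 11 libraries lay nearest to each of the 10 were found by the root mean square difference of centred log2 values. Nearest to Fgf10 were Abhd14b and Prnp (both at 0.10), to Hgf Fstl1 (0.11) and Zfp57 (0.14), to Fgfr2 Bcl2 (0.14) and Usp2 (0.16), to Fgfr3 Phldb3 (0.12) and Map7 (0.14), and to Met Arih1 and Gabpb1 (both at 0.13). Fgf2 was nearest to Limch1 (0.24) and Cyp2b19 (0.27), and Fgf18 to Lmx1a and Tmem254b (both at 0.23), the widest of these differences. Fgf7 was nearest to Hspa4 and Psma1 (both at 0.07), Fgfr1 to Ctif (0.10) and Cyb5r3 (0.11), and Spry2 to Agfg1 (0.09) and Smad1 (0.10). The points share their libraries and depth.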

How the data were processed

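RNA-sequencing of sorted fibroblasts was available as 1 table of RPKM values. Per the labels and the study's methods, libraries were made from 100 ng (NS) or 200 ng (5dw) of RNA by poly-A selection with a stranded kit and read as single 100 bp reads. The RNA amount differed by tissue, so its part in the wounding comparisons cannot be told apart from that of the wound. The authors aligned them to GRCm38 in CLC Genomics Workbench, counted genes and deposited RPKM, reads scaled to gene length and mapped reads. They tested with edgeR, which needs counts and was not used here. No source used here says how multiply mapped reads were counted.

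Whole reads and mapped totals were recovered from RPKM and exon length with a tolerance of 0.03 (69.9% of 22018 genes were whole in every library). limma 3.58.1 in R 4.3.3 was fitted to log2(RPKM + 0.5) over all 11 libraries with 1 mean per group and 7 residual degrees of freedom, and tested on simulated data first. Libraries of a group differed by more than sampling noise (chi-square per degree of freedom 26.1 to 71.5), so each was counted as 1 replicate. Depth of 18649314 to 39702135 mapped reads leaves low genes, such as Fgfr3 in wounds, with few reads, and counting error is not shown separately. An exact permutation test of 3 against 3 libraries cannot reach the threshold, so single genes rest on the model.

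Gene coordinates came from RefSeq (GRCm38.p6) and span all transcripts of a gene. The genes described, the pathway lists and the marker lists (keratinocyte, dermal papilla, Schwann cell, leukocyte, endothelial, pericyte, adipocyte, muscle, fibroblast) were chosen with earlier results of these data known. From each pathway list, up to 3 DEGs with the highest and 3 with the lowest log2FC for wounding in WT were named, and Fgfrl1, Fgfbp3, Etv1, Mst1r, Hgfac, Krt5, Krt10, Krt14, Krt15, Lef1, Cd3e, Adgre1, Pecam1, Cdh5, Kdr and Sox2 were added after their values were seen. Alternatives were a pseudocount of 0.1 or 1, no filter, a filter of 5 RPKM, median-ratio scaling, a replicate block, only the groups compared, limma-voom on recovered reads and leaving out each library.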

Additional observations from a re-analysis of the deposited data

How the results depend on the processing

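Over 50 fold changes (10 genes in 5 comparisons) and 920 alternatives, 869 kept their direction and their side of the threshold, 1 passed it, 2 no longer did and 48 changed sign, none of them a DEG. The one that passed was Fgfr1 in WT under median-ratio scaling (0.56, adjusted p = 0.00339 in limma, 7 DEGs in all). Those lost were Fgf2 (-1.28) and Met (-0.93) in Act without Act 5dw replicate 3, which left 4 DEGs and 1 Act 5dw library, assumed to vary like the other groups. With a filter of 5 RPKM, 2 of the 10 genes were DEGs in each genotype, since fewer were tested. Without a filter (26465 genes) 6 were. The number of DEGs was 6 for wounding in WT without each library in turn, and 4 to 6 in Act. Fgf2, Fgf10, Fgf18 and Fgfr3 in wounds rest on few reads, which limits their precision.

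Signs changed under median-ratio scaling for wounding in Fgf7 (0.34 in WT, 0.29 in Act), Spry2 (0.45 in WT) and Fgfr1 (0.27 in Act), for Act against WT in Fgfr2 (0.09, NS), Met (0.08, NS) and Fgfr1 (0.02, 5dw), and for the interaction in Fgf7 (-0.05) and Spry2 (-0.06). Under limma-voom they changed for Fgfr3 (-0.01 for Act NS against WT NS, 0.01 for the interaction). Leaving out 1 library gave ranges across 0 for wounding in WT of -0.25 to 0.01 (Fgf7) and -0.11 to 0.17 (Spry2), and in Act of -0.25 to 0.16 (Fgf7) and -0.18 to 0.20 (Spry2). For Act NS against WT NS they were -0.37 to 0.04 (Fgf7), -0.15 to 0.12 (Fgfr2), -0.16 to 0.21 (Fgfr3), -0.25 to 0.27 (Met) and -0.15 to 0.24 (Spry2). For Act 5dw against WT 5dw they were -0.22 to 0.30 (Fgf2), -0.08 to 0.05 (Fgfr1), -0.12 to 0.12 (Fgfr3) and -0.05 to 0.40 (Met). For the interaction they were -0.16 to 0.26 (Fgf7), -0.03 to 0.25 (Fgfr2), -0.24 to 0.13 (Fgfr3), -0.01 to 0.31 (Hgf), -0.10 to 0.44 (Met) and -0.18 to 0.21 (Spry2). The cause was not tested.

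The labels number the libraries within each group. Of 15 pairs of libraries with the same number in different groups, 12 deviated together with r above 0.1 (r -0.12 to 0.55). Taking the libraries of a number together, 10 of 11 libraries correlated best with their own number, a hint from the data and not the design. The best single partner of WT 5dw replicate 2 was Act 5dw replicate 1 (r = 0.31). Its r with Act 5dw replicate 3 was -0.31, because the deviations of these 2 libraries mirror each other. The pairs are thus not independent, and no chance level is given. With the replicate number as a block, 6 genes were DEGs for wounding in WT and 6 in Act, and 0 between genotypes in NS, in 5dw and in the interaction.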
